A study of Mus musculus with 2 samples.

Results

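Single cell RNA sequencing (scRNA-seq) of the dorsal telencephalon of mouse embryos at E14.5 was used to describe 10 genes of 2 linked chromatin and transcription complexes, out of 32285 genes listed. The genes were taken by symbol and comprise *Mllt3*, *Mllt1*, *Mllt10* and *Dot1l*, the family members *Aff1*, *Aff2*, *Aff3* and *Aff4*, and the elongation factors *Ell2* and *Ell3*. All 10 were listed in both libraries. The embryos were C57BL/6 J mice that the labels call WT and that the series describes as controls named EomesMllt3 (EoMltt3 in the sample titles). Which *Eomes* or *Mllt3* alleles they carried is not given in the sources used here. There was 1 droplet library from each of 2 WT samples, called replicates 1 and 3 after their labels, and no other group. Cell classes were therefore compared with each other, and the tissue is labelled as brain hemispheres.

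The proteins of these genes meet at RNA polymerase II. MLLT3 (AF9) and MLLT1 (ENL) are related readers of acylated histone H3, and either can hold one of 2 partners. One is DOT1L, the methyltransferase of a lysine in the core of histone H3, which works with its cofactor MLLT10 (AF10). The other is an AFF scaffold of the super elongation complex, which brings the kinase P-TEFb and an ELL factor to paused polymerase. AFF1 and AFF4 are the best known scaffolds, and AFF2 and AFF3 form related complexes. In the developing cortex, *Dot1l* is known for holding progenitors in the cycling state and *Mllt3* for a part in the identity of cortical projection neurons. Loss of *AFF2* causes an X-linked intellectual disability in humans.

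*Mllt3* (ENSMUSG00000028496) lies on chr4:87769925-88033407 (GRCm38.p6, minus strand) and spans 263 kb. *Aff3* (ENSMUSG00000037138) lies on chr1:38175393-38630178 on the minus strand and spans 455 kb. *Aff2* (ENSMUSG00000031189) lies on chrX:69360190-69872054 on the plus strand and spans 512 kb, the longest of the 10, while *Ell3* is the shortest at 3.58 kb. These 3 long genes carried the main pattern described here, a rise from progenitors to newborn neurons, so the 250 bases before their RefSeq start sites are shown, on the strand of the gene. Capitals mark CAGATG (or its complement CATCTG) and CAGCTG, letters that proneural basic helix-loop-helix factors are known to bind, searched on both strands. RefSeq gives 2 start sites for *Mllt3*, and a count from the 3' end of the RNA does not tell them apart. The only start sites used for *Aff2* and *Aff3* lie inside the spans of the genes given above. Part of the bases shown for *Aff2*, and all of those shown for *Aff3*, therefore lie within these spans.
Mllt3, distal start, chr4:88033408-88033657: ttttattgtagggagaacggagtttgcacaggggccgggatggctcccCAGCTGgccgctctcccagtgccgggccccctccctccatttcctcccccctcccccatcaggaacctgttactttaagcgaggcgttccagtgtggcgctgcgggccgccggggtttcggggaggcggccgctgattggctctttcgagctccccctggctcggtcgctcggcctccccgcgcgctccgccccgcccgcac
Mllt3, internal start, chr4:87806324-87806573: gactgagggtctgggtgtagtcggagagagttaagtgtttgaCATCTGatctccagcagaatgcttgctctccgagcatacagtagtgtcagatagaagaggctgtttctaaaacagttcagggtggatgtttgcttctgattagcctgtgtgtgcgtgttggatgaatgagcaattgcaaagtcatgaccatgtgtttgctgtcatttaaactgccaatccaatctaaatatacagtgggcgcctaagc
Aff2, chrX:69360081-69360330: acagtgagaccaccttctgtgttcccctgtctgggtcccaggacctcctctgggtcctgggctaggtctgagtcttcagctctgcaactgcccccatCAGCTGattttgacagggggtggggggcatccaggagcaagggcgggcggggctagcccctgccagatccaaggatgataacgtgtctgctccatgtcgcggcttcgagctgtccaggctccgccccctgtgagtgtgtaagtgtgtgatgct
Aff3, chr1:38627245-38627494: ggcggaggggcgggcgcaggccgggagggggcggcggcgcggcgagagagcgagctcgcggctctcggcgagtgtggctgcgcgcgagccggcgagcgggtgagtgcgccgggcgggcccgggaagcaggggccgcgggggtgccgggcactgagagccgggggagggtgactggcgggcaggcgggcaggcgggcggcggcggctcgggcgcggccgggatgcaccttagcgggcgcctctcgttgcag
The distal *Mllt3* promoter and the *Aff2* promoter each held 1 CAGCTG, the internal *Mllt3* promoter held 1 CATCTG, and the *Aff3* promoter held neither. Of all 32851 promoters of this length, 13.0% held CAGCTG and 14.4% held CAGATG. GC content was 82% for *Aff3*, 69.2% for the distal *Mllt3* start, 61.2% for *Aff2* and 45.2% for the internal *Mllt3* start, against a median of 52.4% over all promoters. These matches describe letters only.

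Replicate 1 held 6163 barcodes and 64182006 unique molecular identifiers (UMIs, each marking 1 captured RNA molecule), and replicate 3 held 8870 barcodes and 93295807 UMIs. After filtering, 5184 and 6952 cells remained in 27 clusters. Classes named from marker genes, hence called "-like", were radial glial cells (RGCs, 730 and 1603 cells in replicates 1 and 3), intermediate progenitor cells (IPCs, 517 and 998), projection neurons (PNs, 2869 and 3464), interneurons of the medial ganglionic eminence (MGE, 335 and 221), Cajal-Retzius cells (38 and 83), endothelial cells (26 and 46), pericytes (38 and 46), meningeal cells (44 and 132), microglia (5 and 29), red blood cells (56 and 94), cells of the cortical hem and choroid plexus (19 and 142) and neurons of the lateral ganglionic eminence (119 and 1). The last pair had under 20 cells in 1 library and entered no comparison. MGE interneuron-like cells were shallower (median 4528 and 4056 UMIs) than PN-like cells (11065 and 10547.5). Not named were 388 and 93 cells, with 333 and 30 in a GABAergic cluster led by *Adarb2* and 55 and 63 in a cluster led by *Hbb-y*, *Cxcl14* and *Krt14*. The libraries shared 23 barcodes. The 8 IPC markers summed to 2343 and 2143 UMIs of each 1000000 (CPM) in IPC-like cells with none at 0, and the 7 GABAergic markers to 2574 and 2468 in MGE interneuron-like cells.

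Levels are UMIs of a gene out of each 1000000 UMIs (CPM) summed over the cells of a class in 1 library. They are compared between classes for 1 gene and not between genes, since no correction for gene length was made. Differences are log2 fold changes between class sums with their SE, tested with edgeR's quasi-likelihood test and Benjamini-Hochberg adjustment over all genes, and "rose" or "fell" is used for an adjusted p under 0.05. Over the kept cells, *Mllt3* gave 62981 and 73026 UMIs in replicates 1 and 3, *Aff3* 56559 and 63872, *Aff2* 20172 and 27699, *Mllt10* 13750 and 21108, and *Aff4* 10769 and 13355. *Dot1l* (1855 and 2473), *Mllt1* (1354 and 1815) and *Aff1* (817 and 1876) gave fewer, *Ell2* gave 139 and 197, and *Ell3* gave 3 and 1. *Ell3* was at or under the floor of 3 UMIs in both libraries and was not tested, so 9 of the 10 members entered the tests.

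**Figure D1:**
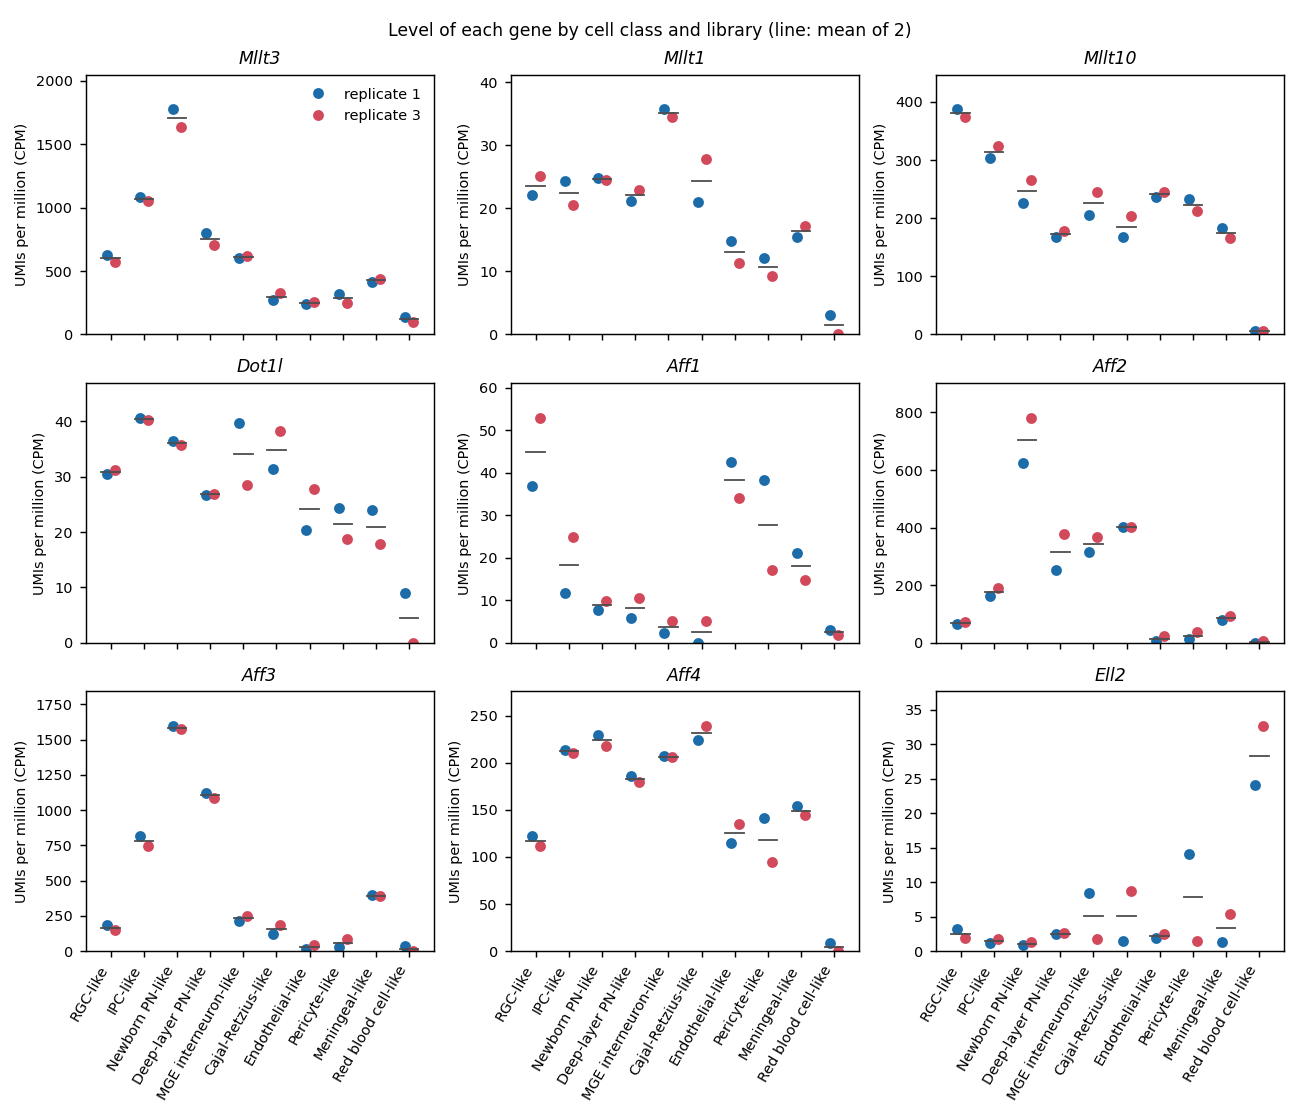
Level in CPM (y axis, from 0, own scale for each gene) of the 9 tested members in 10 cell classes (x axis). Points are the 2 libraries and grey lines their mean. *Mllt3*, *Aff2* and *Aff3* peak in newborn PN-like cells, *Mllt10* in RGC-like cells and *Ell2* in red blood cell-like cells.

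From progenitors to neurons, the class levels of *Mllt3*, *Aff3* and *Aff2* rose at both steps, though the IPC-like clusters differed widely in *Aff2*. Between RGC-like and IPC-like cells, 6 of the 9 tested members changed, 5 higher and 1 lower, where 33.0% of all 15413 genes tested were called (16.1% higher and 16.9% lower). In RGC-like cells of replicates 1 and 3, *Mllt3* measured 629 and 569 CPM, and in IPC-like cells 1088 and 1049 CPM. Both IPC values lay above both RGC values (log2 fold change 0.89, SE 0.13, adjusted p = 0.000446). *Aff3*, a nuclear scaffold of the AFF family, went from 183 and 151 CPM in RGC-like to 820 and 747 CPM in IPC-like cells. This was the largest change of the members at this step (log2 fold change 2.29, SE 0.18, adjusted p = 4.78e-06). *Aff2* had 66.9 and 71.6 CPM in RGC-like and 162 and 189 CPM in IPC-like cells (log2 fold change 1.40, SE 0.14, adjusted p = 2.36e-05), and with a stricter cell filter, where cells were clustered anew, the difference was 0.45 (adjusted p = 0.0446). The largest IPC-like cluster, led by *Kif26b*, *Neurog2* and *Eomes* (283 and 486 of the 517 and 998 cells), stood at 45.7 and 51.4 CPM of *Aff2*, below both RGC values. The higher *Aff2* level of the class thus came from the other two IPC-like clusters, which are described with the progenitor clusters. *Aff4*, the scaffold of the canonical complex, had 122 and 112 CPM in RGC-like and 213 and 210 CPM in IPC-like cells (log2 fold change 0.91, SE 0.11, adjusted p = 9.63e-05). The libraries were close for all 4 genes and the groups did not overlap.

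*Dot1l* moved less. Its level was 30.5 and 31.1 CPM in RGC-like and 40.6 and 40.2 CPM in IPC-like cells (log2 fold change 0.45, SE 0.13, adjusted p = 0.0226), and the call was lost with no filter on low counts (adjusted p = 0.0594) and with cells thinned to 3000 UMIs (adjusted p = 0.0847). *Aff1*, the first described AFF scaffold, was the member that fell. It dropped from 37.0 and 52.9 CPM in RGC-like to 11.8 and 25 CPM in IPC-like cells (log2 fold change -1.20, SE 0.33, adjusted p = 0.0163), and the fall was larger with no cell filter (-2.10) and at a coarser clustering (-1.92). Thus *Aff1* and *Aff4* differed in sign at this step. IPC-like clusters differed in *Aff1*. In replicates 1 and 3 the *Kif26b*-led cluster stood at 10.1 and 10.8 CPM and the cluster led by *Rrm2* at 11.4 and 10.3 CPM. The cluster led by *Rmst* stood at 15.5 and 50.4 CPM, and its replicate 3 value was near the 52.9 CPM of RGC-like cells in that library. The log2 fold change of *Mllt10* was -0.22 (SE 0.13, adjusted p = 0.224), and DESeq2 called it (-0.29, adjusted p = 0.0398). *Mllt1* (-0.03, SE 0.14, adjusted p = 0.897) and *Ell2* (-0.64, SE 0.55, adjusted p = 0.417) were not called.

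Between IPC-like and PN-like cells, 4 members changed, 3 higher and 1 lower, with 42.1% of all genes called (22.2% higher and 20% lower). *Aff2* had the largest difference of the members. It stood at 515 and 601 CPM in PN-like cells, against 162 and 189 CPM in IPC-like cells (log2 fold change 1.82, SE 0.14, adjusted p = 1.68e-06). *Aff3* stood at 1430 and 1357 CPM in PN-like cells (log2 fold change 0.98, SE 0.17, adjusted p = 0.000731). *Mllt3* stood at 1391 and 1237 CPM in PN-like cells (log2 fold change 0.45, SE 0.13, adjusted p = 0.0175). The change in *Mllt3* was in the same direction under each alternative but lost its call with library sizes as the only scaling (0.30, adjusted p = 0.096), with predicted doublets kept (0.25, adjusted p = 0.139) and at a coarser clustering (0.27, adjusted p = 0.129). *Mllt10* fell, from 304 and 324 CPM in IPC-like cells to 195 and 222 CPM in PN-like cells (log2 fold change -0.44, SE 0.13, adjusted p = 0.018), and missed the threshold with no filter on low counts (adjusted p = 0.0544). *Aff1* stood at 8.35 and 10.5 CPM in PN-like cells (log2 fold change -0.86, SE 0.34, adjusted p = 0.061). It passed under 4 settings, with the replicate as a block (-0.82, adjusted p = 0.0216), library sizes alone (adjusted p = 0.0308), RLE scaling (adjusted p = 0.0499) and no filter on low counts (adjusted p = 0.00018). Its size was unsteady, at -0.32 without replicate 3, -1.12 without replicate 1 and -0.018 with no cell filter. *Aff4* was not called (0.08, SE 0.11, adjusted p = 0.571), and turned to -0.07 with library sizes alone.

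PN-like cells held clusters of different maturity, and the members did not keep rising through them. Newborn PN-like clusters held 1318 and 1830 cells and deep-layer PN-like clusters 832 and 993, and the remaining PN-like cells belonged to neither. Between these sub-classes 6 members changed, 5 of them lower in deep-layer PN-like cells, with 30.2% of 14027 genes called (16.5% higher and 13.7% lower). *Mllt3* stood at 1780 and 1637 CPM in newborn PN-like and at 802 and 707 CPM in deep-layer PN-like cells. The difference of -1.10 on the log2 scale (SE 0.14, adjusted p = 0.00371) put the level below that of IPC-like cells. *Aff2* stood at 625 and 781 CPM in newborn PN-like and at 255 and 378 CPM in deep-layer PN-like cells (log2 fold change -1.08, SE 0.21, adjusted p = 0.0155). *Aff3* moved less, from 1594 and 1572 CPM in newborn PN-like to 1122 and 1087 CPM in deep-layer PN-like cells (log2 fold change -0.45, SE 0.12, adjusted p = 0.039). The other falls were those of *Mllt10* (-0.43, SE 0.11, adjusted p = 0.0373) and *Dot1l* (-0.35, SE 0.09, adjusted p = 0.0342), and DESeq2 did not call *Dot1l* (adjusted p = 0.18). *Ell2* rose by 1.27 (SE 0.32, adjusted p = 0.0338) from 12 and 23 UMIs in newborn PN-like to 26 and 32 UMIs in deep-layer PN-like cells, and DESeq2 did not call it (adjusted p = 0.118). *Aff4* missed the threshold (-0.22, SE 0.09, adjusted p = 0.137) and was called with the replicate block (adjusted p = 0.0405). *Mllt1* (-0.09) and *Aff1* (-0.03) did not pass.

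**Figure D2:**
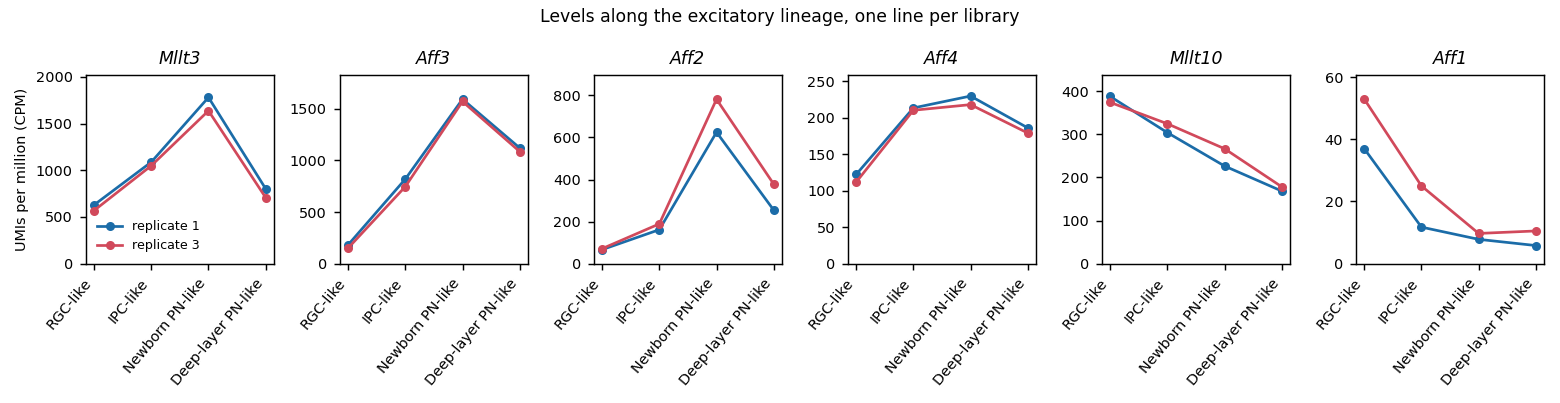
Level in CPM (y axis, from 0, own scale for each gene) in RGC-like, IPC-like, newborn PN-like and deep-layer PN-like cells (x axis), with 1 line for each library. *Mllt3*, *Aff3*, *Aff2* and *Aff4* are highest in newborn PN-like cells in both libraries, and *Mllt10* and *Aff1* are highest in RGC-like cells in both.

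Along the 4 stages, newborn PN-like cells held the highest level of *Mllt3*, *Aff2*, *Aff3* and *Aff4* in both libraries. Relative to RGC-like cells, the newborn level was 2.83 and 2.88 times as high for *Mllt3*, 9.34 and 10.9 times for *Aff2*, 8.72 and 10.4 times for *Aff3*, and 1.88 and 1.95 times for *Aff4*. For *Mllt10* the ratio was 0.584 and 0.713, and for *Aff1* 0.212 and 0.184. *Dot1l* was highest in IPC-like cells in both libraries, and *Mllt10*, which encodes its cofactor, in RGC-like cells. These are ranks of levels. In edgeR's main fit the difference of *Mllt10* between RGC-like and IPC-like cells was not called (-0.22, adjusted p = 0.224). That of *Dot1l* between IPC-like and PN-like cells was not called either (-0.22, adjusted p = 0.199).

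Single clusters of PN-like cells showed that the members did not share 1 order. *Mllt3* was highest in the cluster led by *Ndst3*, *Nrp1* and *Robo2* (2379 and 2154 CPM) and lowest in the clusters led by *Hs3st4* (677 and 633 CPM) and *Slit3* (671 and 580 CPM). The last pair overlapped between libraries. *Aff3* was also high in the *Ndst3*-led cluster (2043 and 2090 CPM) and lowest in the *Slit3*-led cluster (675 and 725 CPM). *Aff2*, in contrast, was highest in a cluster led by *Luzp2*, *Chrna7* and *Gabra2* (961 and 1074 CPM), in which *Mllt3* stood at 1358 and 1144 CPM. *Aff2* was lowest in the *Hs3st4*-led cluster (118 and 218 CPM), where *Aff3* stayed at 1060 and 1001 CPM. Clusters were made from the same cells, so these levels are a description.

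**Figure D3:**
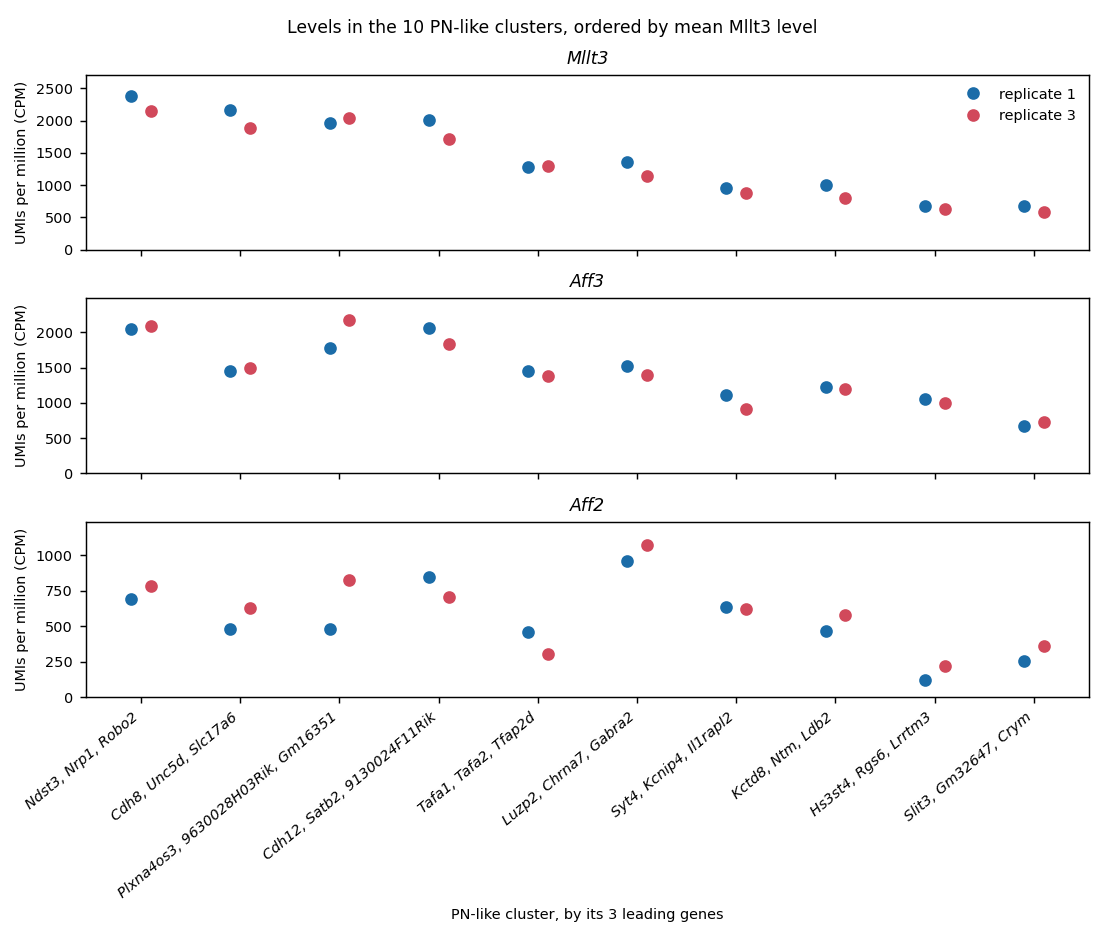
Level in CPM (y axis, from 0) of *Mllt3*, *Aff3* and *Aff2* in the 10 PN-like clusters (x axis, by the 3 leading genes of each cluster), ordered by the mean level of *Mllt3*. Points are the 2 libraries. *Aff2* does not follow the order of *Mllt3* and is highest in the cluster led by *Luzp2*, *Chrna7* and *Gabra2*.

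Progenitor clusters differed as well. Beside the *Kif26b*-led IPC-like cluster, *Aff2* stood at 174 and 185 CPM in the one led by *Rrm2* (127 and 183 cells) and at 381 and 353 CPM in the one led by *Rmst* (107 and 329 cells), with no overlap between the 3. Their marker profiles were mixed. Of 8 IPC, 10 RGC and 12 PN markers, the naming counted 7, 8 and 8 in the *Rmst*-led cluster. It counted 8, 7 and 6 in the *Kif26b*-led and 8, 4 and 9 in the *Rrm2*-led cluster. *Mllt3* ranged less over the same clusters, from 976 and 932 CPM in the *Kif26b*-led to 1223 and 1215 CPM in the *Rrm2*-led cluster. Among RGC-like clusters, the one led by the mitotic genes *Cenpa* and *Cdc20* had the lowest level of all 3 genes. There *Aff3* stood at 50.5 and 55.3 CPM, against 213 and 177 CPM in the cluster led by *Hist1h2ap*, and *Mllt3* stood at 460 and 407 CPM, against 622 and 613 CPM.

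**Figure D4:**
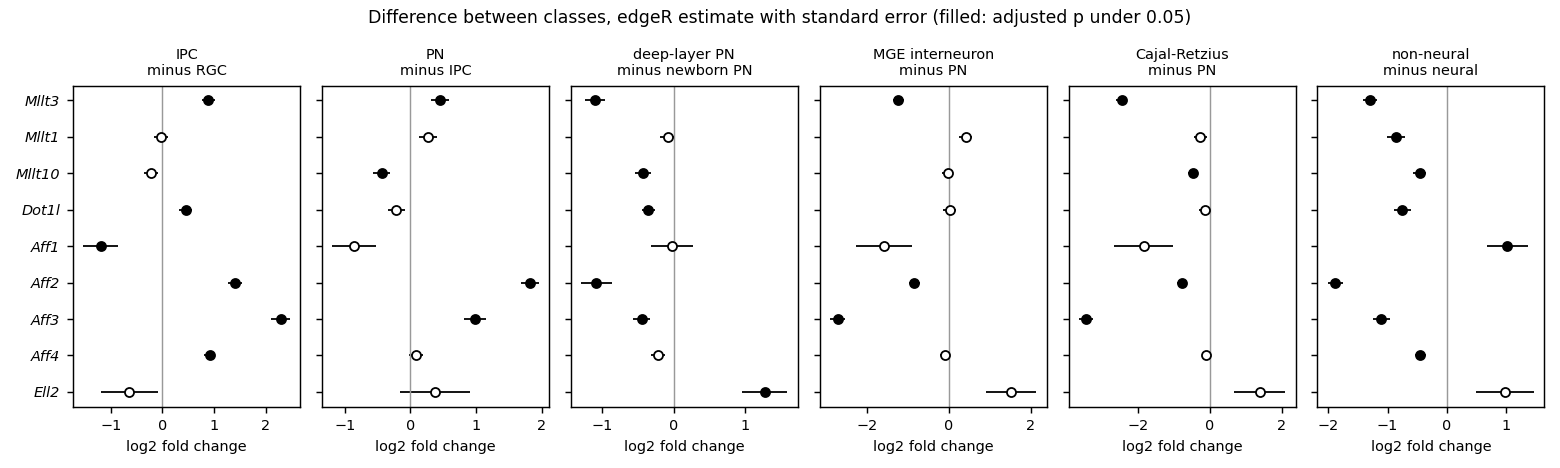
Log2 fold change of 9 members (x axis, own scale for each panel) in 6 comparisons between cell classes, edgeR estimates with their standard errors as bars. Filled points have an adjusted p under 0.05. *Aff3* and *Mllt3* are positive in the first 2 panels and negative in the other 4.

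Interneurons and Cajal-Retzius cells are neurons that arise outside the dorsal ventricular zone or at its edges. Both had lower levels of the same 3 genes than the pooled PN-like class. The levels of *Mllt3* and *Aff3* were also below those of the deep-layer sub-class, while those of *Aff2* were not. Differences from the deep-layer sub-class were not tested. Between MGE interneuron-like and PN-like cells 3 members changed, all lower (30.7% of all genes called, 11.8% higher and 18.9% lower). *Aff3* stood at 216 and 250 CPM in MGE interneuron-like cells (log2 fold change -2.72, SE 0.18, adjusted p = 2.02e-06), or -1.70 with predicted doublets kept. *Mllt3* stood at 604 and 622 CPM (-1.24, SE 0.14, adjusted p = 7.54e-05), values that overlapped with those of RGC-like cells. *Aff2* stood at 315 and 369 CPM (-0.84, SE 0.14, adjusted p = 0.000822), and both values were above those of RGC-like cells (66.9 and 71.6 CPM). They fell between the deep-layer PN-like values of *Aff2* (255 and 378 CPM). *Mllt10* (206 and 245 CPM), *Aff4* (207 and 206 CPM) and *Dot1l* (39.7 and 28.5 CPM) had log2 fold changes of -0.02, -0.10 and 0.02, and the sign of each turned under another scaling or cell filter. *Mllt1* had its highest level of all classes here, 35.7 and 34.5 CPM against 23.7 and 24.5 CPM in PN-like cells (log2 fold change 0.41, SE 0.16, adjusted p = 0.0776), and passed with library sizes alone (0.55, adjusted p = 0.0282), with RLE scaling (0.53, adjusted p = 0.0294) and with DESeq2 (0.53, adjusted p = 0.0291). *Aff1* gave 4 and 6 UMIs here (-1.58, SE 0.69, adjusted p = 0.111) and passed under 3 settings, with no cell filter (adjusted p = 0.0428), with no filter on low counts and with the 2 compared classes alone in the fit. *Ell2* gave 15 and 2 UMIs (1.52, SE 0.62, adjusted p = 0.0873), passed with DESeq2 (adjusted p = 0.0397) and with no cell filter (adjusted p = 0.0234), and was at -0.27 without replicate 1. The median of all genes was higher by 0.13, 0.12 and 0.12 on the log2 scale with library sizes alone, RLE scaling and DESeq2.

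The unnamed GABAergic cluster led by *Adarb2* (333 and 30 cells) had a different balance. *Aff2* stood at 136 and 140 CPM there, below both MGE interneuron-like values, and *Aff3* at 377 and 383 CPM, above both. *Mllt3* stood at 549 and 832 CPM, on either side of the MGE interneuron-like values. *Dot1l* stood at 45.3 and 73.6 CPM (96 and 10 UMIs), above both MGE interneuron-like values. No test was made for this cluster.

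Between Cajal-Retzius-like and PN-like cells 4 members changed, all lower (27.1% of all genes called, 12.3% higher and 14.8% lower). *Aff3* stood at 124 and 187 CPM (log2 fold change -3.46, SE 0.19, adjusted p = 5.77e-07) and *Mllt3* at 268 and 323 CPM (-2.46, SE 0.14, adjusted p = 7.6e-07). *Mllt3* was thus lower in this neuron class than in RGC-like cells, with no overlap. *Aff2* stood at 402 and 402 CPM (-0.78, SE 0.14, adjusted p = 0.00145, and -0.47 with library sizes alone). Both values lay above the deep-layer PN-like level (255 and 378 CPM) and below the newborn PN-like level (625 and 781 CPM). *Mllt10* stood at 167 and 204 CPM (-0.47, SE 0.14, adjusted p = 0.0275) and lost its call under 5 settings, at library sizes alone with -0.16 (adjusted p = 0.486). *Aff4* stood at 224 and 239 CPM (-0.11, SE 0.11, adjusted p = 0.527) and turned positive with library sizes alone (0.20), RLE scaling (0.0069) and DESeq2 (0.0075), settings that raised the median of all genes by 0.32, 0.12 and 0.12. *Mllt1* (-0.26), *Dot1l* (-0.13), *Aff1* (0 and 6 UMIs) and *Ell2* (1 and 10 UMIs) did not pass, and *Aff1* passed with no filter on low counts (adjusted p = 0.000261).

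Non-neural cells (endothelial-, pericyte-, meningeal- and microglia-like cells summed, 113 and 253 cells) were compared with the mean of RGC-, IPC-, PN- and MGE interneuron-like cells. Of the 9 tested members 8 changed, 7 lower and 1 higher, in a comparison in which 60.6% of all genes were called (26.6% lower and 34.0% higher). *Aff2* stood at 61.1 and 59.8 CPM (log2 fold change -1.88, SE 0.13, adjusted p = 2.09e-07), *Mllt3* at 361 and 339 CPM (-1.30, SE 0.12, adjusted p = 2.16e-06) and *Aff3* at 203 and 225 CPM (-1.10, SE 0.15, adjusted p = 5.69e-05). *Mllt1* (-0.86), *Dot1l* (-0.75), *Mllt10* (-0.46) and *Aff4* (-0.45) also fell, with adjusted p from 0.000463 to 0.00373, and *Mllt1* lost its call in cells thinned to 3000 UMIs (-0.16, adjusted p = 0.725). In such cells *Dot1l* was at -1.42. *Aff1* was the member that rose, at 31.6 and 22.7 CPM (1.02, SE 0.35, adjusted p = 0.0256). Its size rested on the library, at 0.46 without replicate 1 and 1.70 without replicate 3, neither with a test. In both libraries this level was below that of RGC-like cells (37.0 and 52.9 CPM). *Ell2* did not pass (0.98, SE 0.49, adjusted p = 0.107) and was called with no cell filter, with predicted doublets kept and at a coarser clustering.

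The sum hid a spread between non-neural classes. *Aff3* stood at 398 and 388 CPM in meningeal-like cells, at 16.7 and 46.8 CPM in endothelial-like cells and at 28.3 and 88.8 CPM in pericyte-like cells, the last pair overlapping. *Mllt3* followed the same order with a narrower range, at 416 and 439 CPM in meningeal-like cells, 319 and 251 CPM in pericyte-like cells and 237 and 253 CPM in endothelial-like cells, the last pair overlapping. *Aff1* ran the other way, at 42.5 and 34.1 CPM in endothelial-like and 21.1 and 14.8 CPM in meningeal-like cells. The 12 PN markers summed to 813 and 626 CPM in meningeal-like, 596 and 784 CPM in endothelial-like and 1359 and 1525 CPM in pericyte-like cells, against 9226 and 8849 CPM in PN-like cells. Microglia-like cells, led by *Pf4*, *C1qb* and *Mrc1*, gave 606 CPM of *Aff3* and 401 CPM of *Aff2* in the 5 cells of replicate 1 and 70.6 and 16.0 CPM in the 29 cells of replicate 3, with PN markers at 6107 and 1210 CPM. The microglia-like cells of replicate 1 thus had both the highest *Aff3* and the highest PN markers of these classes. The part of PN RNA in these levels was not tested. Without microglia-like cells the same 8 members were called.

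Red blood cell-like cells served as the reference for free RNA. The 8 red blood cell markers, most of them globins, summed to 833052 and 870809 CPM. This lowers the CPM of all other genes, and also their detection in cells thinned to 3000 UMIs. *Mllt3* stood at 138 and 102 CPM in them (46 and 53 UMIs). This was its lowest CPM of all classes, a rank with no correction for the share of these markers. *Aff3* gave 12 and 0 UMIs, *Aff2* 0 and 3, and *Mllt10* 2 and 3. The ratio of *Aff3* to *Mllt3* UMIs was 0.261 and 0 in red blood cell-like cells, against 1.03 and 1.10 in PN-like cells, 0.291 and 0.266 in RGC-like cells and 0.0703 and 0.185 in endothelial-like cells. *Ell2*, an elongation factor, had its highest level here, 24.0 and 32.7 CPM from 8 and 17 UMIs, above each library's value in the other 9 classes plotted (0.887 to 14.2 CPM). In cells thinned to 3000 UMIs, *Mllt3* was detected in 91.1% and 90.8% of PN-like cells (95% Wilson intervals 90.0 to 92.1 and 89.8 to 91.8), 74.0% and 71.2% of RGC-like cells, 73.0% and 78.6% of MGE interneuron-like cells, and 21.3% and 21.7% of red blood cell-like cells (12 to 34.9 and 13.1 to 33.6). The same shares for *Aff3* were 93.4% and 94.3% of PN-like, 37.6% and 31.5% of RGC-like and 2.13% and 0% of red blood cell-like cells, and 0 of 60 cells allows a share of up to 5% by the floor of 3 counts, or 6.02% by the Wilson interval. Without thinning, *Mllt3* was detected in 98.5% and 98.7% of PN-like and 30.4% and 36.2% of red blood cell-like cells.

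RGC-like cells were also compared by cell cycle phase, called from lists of 43 S and 54 G2M genes in cells thinned to 3000 UMIs. In S against G1, 2 members changed, with 11.4% of 12727 genes called (8.17% higher and 3.21% lower). *Aff3* stood at 148 and 121 CPM in G1 and at 228 and 184 CPM in S (log2 fold change 0.65, SE 0.15, adjusted p = 0.0327). *Aff4* went the opposite way, from 148 and 151 CPM in G1 to 101 and 83.1 CPM in S (-0.67, SE 0.12, adjusted p = 0.0122). Neither gene's groups overlapped. *Mllt3* stood at 757 and 605 CPM in G1 and at 512 and 489 CPM in S (-0.40, SE 0.12, adjusted p = 0.0758). With the replicate as a block 4 members were called, *Mllt3* (-0.39, adjusted p = 3.68e-05) and *Mllt10* (0.18, adjusted p = 0.0386) in addition, while 28.7% of all genes were. In G2M against G1, 0 members were called by edgeR's quasi-likelihood test and 0 by DESeq2, with 10.5% of all genes called (7.17% higher and 3.28% lower), and 3 had an unadjusted p under 0.05. With the block 3 were called, *Mllt10* (0.33, adjusted p = 0.000171), *Aff3* (0.30, adjusted p = 0.00255) and *Aff4* (-0.38, adjusted p = 0.000781), with 29.0% of all genes called. In the RGC-like cluster led by *Cenpa* and *Cdc20*, *Aff3* stood at 50.5 and 55.3 CPM, below both G1 values. *Aff4* stood at 156 and 138 CPM there, on either side of its G1 values. *Mllt10* stood at 384 and 366 CPM, above both G1 values (332 and 338 CPM). Median depth rose from 10532 and 9987.5 UMIs in G1 to 15946 and 15142 UMIs in G2M, and its part in these differences was not tested.

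**Figure D5:**
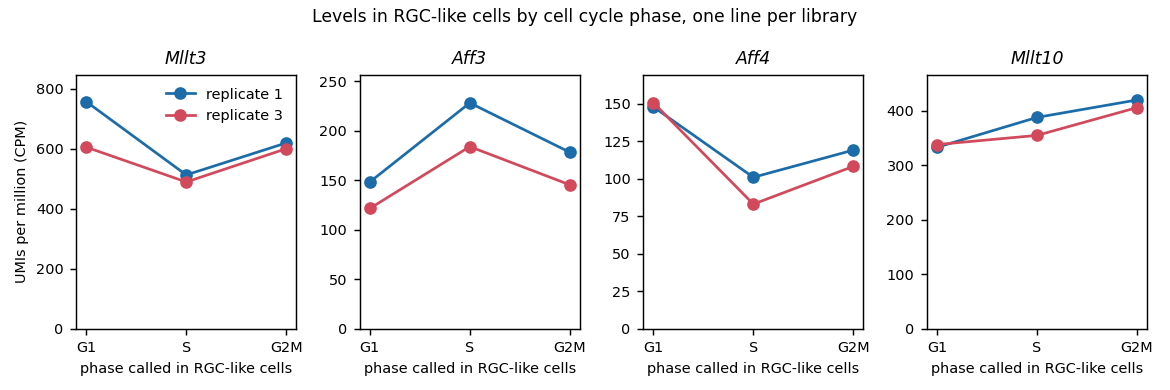
Level in CPM (y axis, from 0, own scale for each gene) of 4 members in RGC-like cells called as G1, S or G2M (x axis), with 1 line for each library. *Aff3* is higher and *Aff4* lower in S than in G1 in both libraries.

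Levels were also ordered over 11 classes. These were RGC-, IPC-, newborn PN-, deep-layer PN-, MGE interneuron-, Cajal-Retzius-, endothelial-, pericyte-, meningeal- and red blood cell-like cells and the *Adarb2*-led cluster. The order is given for *Mllt3*, *Mllt10*, *Dot1l*, *Aff1* and *Aff4*. *Mllt3* ran from newborn PN-like (mean 1708 CPM ± 101, SD, n = 2) over IPC-like (1068 ± 27.5) to deep-layer PN-like cells (755 ± 66.8). The *Adarb2*-led cluster overlapped with deep-layer PN-like, MGE interneuron-like and RGC-like cells. Meningeal-like cells (427 ± 16.1) followed, and Cajal-Retzius-like, pericyte-like and endothelial-like cells overlapped with their neighbours. *Mllt10* was highest in RGC-like (381 ± 9.71) and next in IPC-like cells (314 ± 14.5), and then newborn PN-like, endothelial-like, *Adarb2*-led, MGE interneuron-like and pericyte-like cells overlapped in a row. *Aff1* was highest in RGC-like cells (45.0 ± 11.3) and next in endothelial-like cells (38.3 ± 5.95), whose values overlapped. *Aff4* had a flat top, with Cajal-Retzius-like (231 ± 10.2) and newborn PN-like cells (224 ± 8.32) overlapping. Over the 9 named classes with at least 20 cells in each library, the genes whose class means of log2(CPM + 1) were among the most like those of *Mllt3*, of 7259 genes, included *Msra* (Pearson r 0.95), *Itpk1* (0.94), *Bzw2* (0.94) and *Aff3* (0.93). The 9 class means come from the same 2 libraries, and these values are a description.

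A list of 48 further genes of the same complexes, of which 46 were listed and tested, moved in both directions. The share of them called is given beside that of all genes tested in the same comparison. From RGC-like to IPC-like cells 4 rose and 6 fell (21.7%, all genes 33.0%), with a median log2 fold change of -0.01 against -0.005 over all genes. The rises were led by *Ube2b* (0.70), an enzyme of histone H2B ubiquitination, *Ctr9* (0.58), a subunit of the PAF1 complex, and *Ccnt2* (0.52), a cyclin of P-TEFb. The falls were led by *Zc3h8* (-0.86) of the little elongation complex, *Mllt6* (-0.76), the relative of *Mllt10*, and *Larp7* (-0.63), which binds the inhibitory 7SK RNA. From IPC-like to PN-like cells 5 rose and 5 fell (21.7%, all genes 42.1%), with *Cbx8* (1.16), a Polycomb protein that binds MLLT3, *Zc3h8* (0.76) and *Ice1* (0.60) leading the rises and *Larp7* (-1.10), *Cdc73* (-0.69) and *Supt16* (-0.63), a histone chaperone, the falls. *Larp7* thus fell at both steps, and in deep-layer against newborn PN-like cells it fell again (-0.58), with *Nelfb* (-0.77), a pausing factor, and *Bcor* (-0.61), while *Zc3h8* rose (0.69). In that comparison 1 gene rose and 4 fell (10.9%, all genes 30.2%).

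In MGE interneuron-like against PN-like cells 5 of the 46 rose and 7 fell (26.1%, all genes 30.7%, and a median of -0.01 against -0.11). *Mllt6* (1.08), the co-repressor *Bcor* (1.06) and the ELL partner *Eaf2* (1.01) led the rises, and *Dpy30* (-0.94), *Nelfe* (-0.87) and *Supt4a* (-0.80) the falls. In Cajal-Retzius-like cells 1 rose, *Hexim1* (0.71), the inhibitor of P-TEFb, and 11 fell (26.1%, all genes 27.1%, and a median of -0.21 against -0.10), led by *Wdr5* (-0.97), *Bcor* (-0.91) and *Rtf1* (-0.76). In non-neural cells 7 rose and 18 fell (54.3%, all genes 60.6%, and a median of -0.23 against 0.03). *Hexim1* (1.05), *Larp7* (0.77) and *Ube2a* (0.76) led the rises, and *Mllt6* (-1.33), *Psip1* (-0.97), the chromatin tether of KMT2A, and *Kmt2a* itself (-0.77) the falls. Of the 8 genes of P-TEFb and 7SK 4 rose and 2 fell there, and of the 5 genes of the PAF1 complex 0 rose and 4 fell. In RGC-like cells 6 rose and 0 fell in S against G1 (13.0%, near the 11.4% of all genes), led by *Nelfe* (0.93), *Ssrp1* (0.84) and *Nelfcd* (0.69), and 5 rose and 0 fell in G2M against G1 (10.9%, near the 10.5% of all genes), led by *Mepce* (0.80), *Larp7* (0.77) and *Ssrp1* (0.74). The list was chosen with earlier results of these data known.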

How the data were processed

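The values were raw UMI counts per gene and cell barcode, deposited by the authors as 1 matrix per sample from 10x Genomics 3' v3.1 libraries of papain-dissociated tissue. The submitters' processing notes name Cell Ranger 7.0.0 and the build mm10. Whether intronic reads were counted is not given in the sources used here, which bears on long genes such as *Aff2*, *Aff3* and *Mllt3*. The study's methods count embryos and load each sample on its own, but the sources used here do not name the embryo or embryos behind each of the 2 samples, so p-values measure the spread between these samples. Positions and promoters were taken from RefSeq on GRCm38.p6 by symbol (10 of 10 matched), and overlapping genes from GENCODE vM39 on GRCm39. *Mllt10*, *Aff1* and *Dot1l* overlap *Dnajc1*, *Klhl8* and *Plekhj1* on the opposite strand, and *Ell3* overlaps *Serinc4* on its own strand.

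Cells were kept at 1500 to 60000 UMIs with less than 10% of UMIs mitochondrial, and doublets, scored against 2 simulated doublets per cell, were removed at 0.8% per 1000 barcodes (269 and 531 barcodes). Leiden clusters (resolution 1, seed 1) were made with scanpy from 2000 variable genes and 30 components. They were named from 134 markers of 16 classes, with at least 3 markers. Rules on ties, GABAergic markers, globin share and PN sub-classes were set after the clusters were seen. Counts were summed per class and replicate and fitted in edgeR (quasi-likelihood test, TMM, filter on low counts, Benjamini-Hochberg adjustment, threshold 0.05). The SE was obtained by dividing the size of the log2 fold change by the root of the F statistic. CPM values carry no TMM factor. Intervals and floors cover counting error only. In simulated counts the share of false calls was above the nominal one, so adjusted p-values close to the threshold are uncertain.

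All class sums with the same replicate number share a library and are paired by it. Their deviations correlated at -0.0039 to 0.268 for classes, 0.259 to 0.40 for phases and 0.252 for PN sub-classes. The main design had no block, and a fit with the block was the alternative. Phase genes were left out of the phase tests. Named genes were all 10 members, the 5 genes most like *Mllt3* by Pearson r among those of at least 20 CPM on average, and in each comparison up to 3 rises and 3 falls of the 48-gene list that passed the threshold in the same direction in both replicates. The values of 1 named gene are left out. The members and lists were chosen with earlier results of these data known. Software was Python 3.11.15, scanpy 1.11.5, leidenalg 0.10.2, R 4.3.3, edgeR 4.0.16 and DESeq2 1.42.0.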

Additional observations from a re-analysis of the deposited data

How the results depend on the processing

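Of 33 member changes past the threshold, 26 kept their direction and their call under every alternative with a test, and the others were *Dot1l* (IPC against RGC and deep-layer against newborn PN), *Mllt3* and *Mllt10* (PN against IPC), *Mllt10* (Cajal-Retzius), *Mllt1* (non-neural) and *Ell2* (deep-layer PN). No member past the threshold turned its sign in any of them, and the cause of the lost calls was not tested. Of 891 member values under alternatives, 817 kept their direction and side of the threshold, or in 1 library alone kept their direction within the replicate spread. With both libraries 14 lost the call, 25 gained one and 20 turned sign. In 1 library alone 15 turned sign or moved by more than the replicate spread. In that library-wise setting values carry no test. The spread came from the same 2 libraries, so few values can exceed it and the setting is a weak check.

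The turned signs were all of values that did not pass, in 1 library alone as well. Those with both libraries were as follows. With library sizes alone, *Aff4* was -0.070 in PN against IPC and 0.031 in MGE interneuron against PN, *Mllt10* was 0.11 in the latter, and *Mllt1* (0.054), *Dot1l* (0.18) and *Aff4* (0.20) turned in Cajal-Retzius against PN. In MGE interneuron against PN, *Mllt10* was 0.094 with RLE scaling, 0.089 with DESeq2, 0.024 with a stricter cell filter, 0.10 with doublets kept and 0.0017 at resolution 0.6. *Aff4* was 0.013 there with RLE scaling and 0.013 with DESeq2, and 0.0069 and 0.0075 in Cajal-Retzius against PN. *Dot1l* in MGE interneuron against PN was -0.22 with no filter on low counts, -0.016 with a stricter cell filter and -0.32 in thinned cells. *Mllt1* in IPC against RGC was 0.0063 with no cell filter and 0.00021 at resolution 0.6.

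In MGE interneuron against PN, 5 members were called by DESeq2 (*Mllt1* and *Ell2* in addition) and 5 with no cell filter (*Aff1* and *Ell2* in addition), against 3. With no filter on low counts 21.8% of all genes were called in IPC against RGC and 27.0% in PN against IPC, where more genes were tested, and in thinned cells 15.4% in Cajal-Retzius against PN. With the replicate block 4 members and 28.7% of genes were called in S against G1, and 3 members and 29.0% in G2M against G1. The block also added *Aff1* (PN against IPC) and *Aff4* (deep-layer PN), and changed no other call of a member. Of all calls, 52.6% were higher in PN against IPC and 40.4% with library sizes alone, with a median shift of -0.15 on the log2 scale. In MGE interneuron against PN 38.5% were higher, and 51.1%, 49.3% and 52.5% with library sizes alone, RLE scaling and DESeq2. In Cajal-Retzius against PN 45.4% were higher, and 72.1%, 55.8% and 58.9%. Leaving out the PN-like cluster led by noncoding RNAs (28 and 112 cells), or microglia-like cells from the non-neural sum, both added after the data were seen, changed no call of a member. Of 60 detection shares, 52 were lower in cells thinned to 1500 UMIs. Classes with few cells and genes with few UMIs, such as *Ell2* and *Aff1*, carry the least precision, and *Ell3* was not detectable above its floor.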
